A study of Mus musculus with 6 samples.

Results

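Collagens and the other main matrix genes of the dermis were followed in keratinocytes from mouse back-skin epidermis. The members were all genes whose symbol is Col, a number and a chain, together with 22 named matrix genes from Sparc to Vcan, and Col17a1 was left out. Of 65 genes that this choice can name, 54 were measured among 11281 genes, 33 collagen chains and 21 others, read by 1160 of 109751 probe sets. The other 11, Col14a1, Col19a1, Col22a1, Col23a1, Col28a1, Col6a2, Col6a3, Col6a4, Col6a5, Col8a2 and Lox, were not analysed here. Col4a3bp, which encodes a ceramide transporter and not a collagen, is now named Cert1 and is no member.

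The samples came from 3 K14ΔNLef1 mice or pools and 3 wild type ones, all female, 9.5 weeks old and of C57BL6/CBA background, and each was read on 1 exon array. K14ΔNLef1 mice carry Lef1, a DNA-binding factor of the Wnt pathway, in a form without its N-terminal part, which is the part that binds beta-catenin. The transgene is driven by the keratin 14 promoter, which is active in basal keratinocytes and the outer root sheath of the hair follicle and not in dermal fibroblasts. The labels call the samples unfractionated keratinocytes and biological replicates without saying whether each is 1 mouse, and do not say how many founder lines were used. The comparison asks how the transgene changes expression in the epidermis, here of collagen and matrix genes, some of which are made in skin mainly below it.

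Collagens are triple-helical proteins that are secreted as procollagens, trimmed by proteases outside the cell and cross-linked by lysyl oxidases. Collagens I, III and V form the fibrils of the dermis, which are made by fibroblasts, while keratinocytes contribute collagens of the basement membrane and its anchoring fibrils. Small leucine-rich proteoglycans coat the fibrils, fibrillin and fibulins build elastic fibres, and matricellular proteins such as Sparc and tenascin C bind matrix and cells and change with growth and repair.

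A gene's value is its probe sets' mean on the log2 scale, and differences are K14ΔNLef1 minus wild type on that scale, with limma's standard error (SE) and a p adjusted over all genes by Benjamini-Hochberg, called at or under 0.05. K14ΔNLef1 replicate 1 stood apart from the other arrays. Its correlation with them over all probe sets was 0.824 to 0.843, against 0.904 to 0.935 among the other 5, and its median intensity was 154, against 190 to 203. Lef1 itself was higher on every K14ΔNLef1 array, at 11.11, 11.13 and 11.24, against 5.81, 7.02 and 6.26 in wild type. Of 13 keratinocyte markers measured 12 were lower in K14ΔNLef1, 6 of them without overlap (46.2%). Their median difference was -0.34, and 0 passed limma's test. Over all genes 42.8% were higher and 11.8% were lower without overlap, with a median of -0.05. Of all genes with a mean log2 of 9 or more, 13.4% were higher and 22.3% were lower without overlap, with a median of -0.28. Without K14ΔNLef1 replicate 1 the median was -0.06 for these bright genes and -0.26 for the keratinocyte markers. Krt10, a keratin of differentiated layers, was at 11.58, 12.24 and 12.28 in K14ΔNLef1 and 12.64, 12.61 and 12.67 in wild type. Krt14, the 1 marker that was not lower, was at 12.81, 13.04 and 13.06 on the K14ΔNLef1 arrays and 12.94, 12.89 and 12.99 on the wild type arrays, and Krt5 at 11.98, 12.26 and 12.48 in K14ΔNLef1 and 12.32, 12.47 and 12.42 in wild type. Over all genes, 37 rose (0.328%) and 94 fell (0.833%). Shifting the arrays to the same median moved the median difference of all genes to 0.055, against -0.054 as deposited, and 103 genes then rose (0.913%) and 133 fell (1.18%), 2.09% in all.

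Of the 54 matrix genes, 1 was called in the gene fit as deposited. Pcolce2, which encodes an enhancer of the protease that removes the C-terminal end of procollagens, fell, and 0 members rose, where 1.16% of all genes were called. Its values were 5.10, 5.39 and 4.94 on the K14ΔNLef1 arrays and 6.63, 7.07 and 6.55 on the wild type arrays. Every K14ΔNLef1 array was below every wild type array by more than 1. The means were 5.14 ± 0.23 in K14ΔNLef1 and 6.75 ± 0.28 in wild type (SD, n = 3 arrays each), a difference of -1.60 (SE 0.21) or 3.04-fold lower, with a limma adjusted p of 0.0157. With 1 array left out the difference stayed between -1.73 and -1.44, and the adjusted p ran from 0.0225 to 0.0767. The call was lost without K14ΔNLef1 replicate 3 (0.0527) or wild type replicate 1, 2 or 3 (0.0679, 0.0767 and 0.0685), and 2 of the 6 fits kept it. In whole samples, fewer cells of a type that makes the RNA and less RNA per cell cannot be told apart.

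Pcolce2 is read by 7 probe sets, and they did not change equally (limma diffSplice adjusted p of 2.66e-04). The strongest, probe set 4480370, was at 3.36, 4.83 and 3.002 in K14ΔNLef1 and 7.63, 8.73 and 7.37 in wild type, a difference of -4.18. Another 5 were at differences of -2.03 to -1.20, and all 6 separated the genotypes without overlap. Probe set 5549354 went the other way, with 5.54, 5.28 and 5.22 in K14ΔNLef1 and 5.30, 5.05 and 3.65 in wild type, where the groups overlap. Their positions along Pcolce2 were not analysed here. No probe set of Pcolce2 passed the limma test per probe set as deposited, the smallest adjusted p being 0.0512, and 6 of 7 had an unadjusted p under 0.05.

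The close relative Pcolce, which encodes the main procollagen C-proteinase enhancer, did not pass. Pcolce was at 6.95, 6.42 and 6.18 in K14ΔNLef1 and 6.48, 6.36 and 6.74 in wild type, and these groups overlap. Its difference was -0.01, with a 95% interval of -0.56 to 0.53, so a fall of the size seen for Pcolce2 lies outside the interval. The cross-linking enzymes Loxl1 and Loxl2 had differences of 0.09 and 0.10, with intervals of -0.31 to 0.50 and -0.30 to 0.49.

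**Figure D1:**
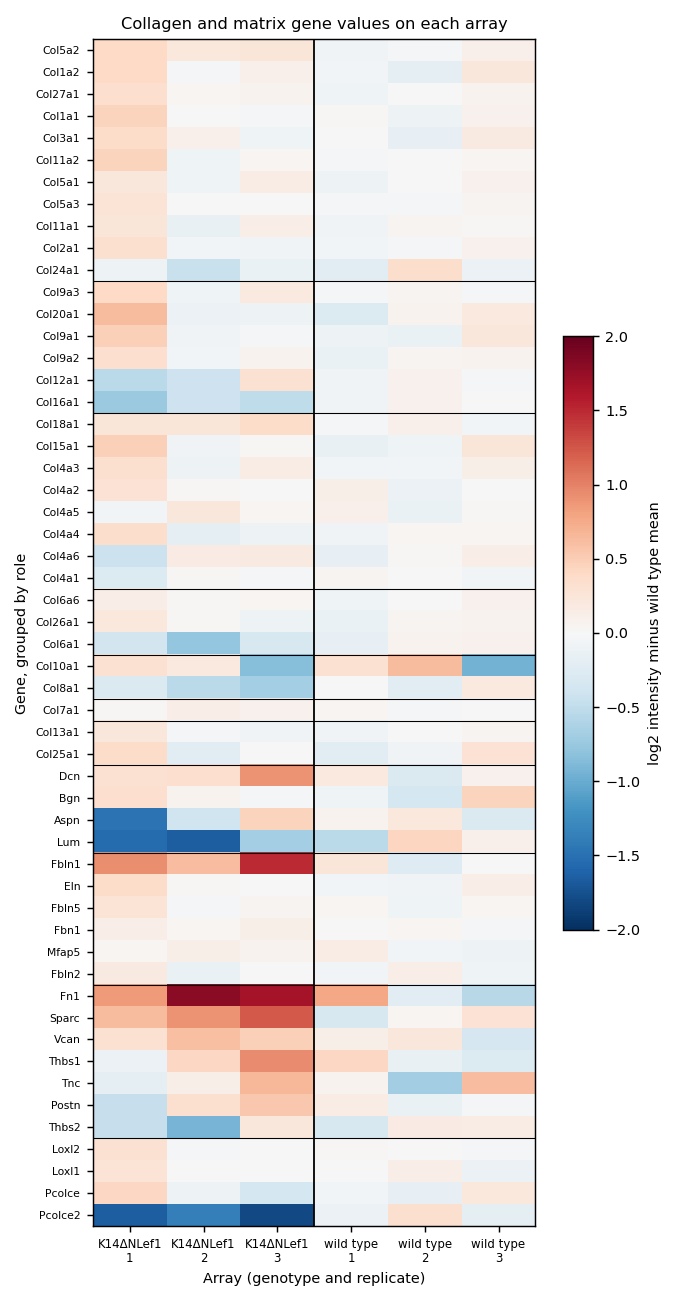
The log2 intensity of each of the 54 collagen and matrix genes on each array, minus its wild type mean (red higher, blue lower), with genes in rows grouped by role. Pcolce2 at the bottom is blue on all 3 K14ΔNLef1 arrays, Fn1, Sparc and Fbln1 are red on all 3, and K14ΔNLef1 replicate 1 is pale red for most collagens.

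The stretches of 250 bases before the transcription start are shown for Pcolce2 and for 3 members described below whose genotypes did not overlap, Sparc, Col16a1 and Col8a1, each with 1 start in RefSeq's GRCm38.p6 promoter table. These 4 were chosen after their values were seen, and are given 5′ to 3′ on the gene's strand. Capitals mark the GC box GGGCGG, the motif of Sp factors, on either strand. The words of Lef1 binding searched in the same way were CTTTGAA with its variant CTTTGAT, and CTTTGTA with its variant CTTTGTT.
Pcolce2: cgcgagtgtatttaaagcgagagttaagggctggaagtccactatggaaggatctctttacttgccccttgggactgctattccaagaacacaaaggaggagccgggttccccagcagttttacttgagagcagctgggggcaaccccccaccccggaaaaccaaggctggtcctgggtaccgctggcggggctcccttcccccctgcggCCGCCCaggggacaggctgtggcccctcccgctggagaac
Sparc: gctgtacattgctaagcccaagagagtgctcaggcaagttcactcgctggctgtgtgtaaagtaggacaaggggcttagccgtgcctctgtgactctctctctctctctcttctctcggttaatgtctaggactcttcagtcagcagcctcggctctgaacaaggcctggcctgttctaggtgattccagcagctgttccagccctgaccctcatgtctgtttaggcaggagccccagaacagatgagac
Col16a1: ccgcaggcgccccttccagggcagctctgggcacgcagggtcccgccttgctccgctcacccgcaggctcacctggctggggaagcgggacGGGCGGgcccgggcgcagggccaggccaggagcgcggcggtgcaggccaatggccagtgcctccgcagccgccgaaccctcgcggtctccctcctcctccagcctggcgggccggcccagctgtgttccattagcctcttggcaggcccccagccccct
Col8a1: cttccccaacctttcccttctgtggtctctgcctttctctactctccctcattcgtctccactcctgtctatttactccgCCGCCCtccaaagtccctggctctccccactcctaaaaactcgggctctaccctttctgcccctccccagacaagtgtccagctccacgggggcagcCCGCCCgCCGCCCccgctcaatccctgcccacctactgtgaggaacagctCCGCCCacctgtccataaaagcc
They lie at chr9:95637378-95637627 on the plus strand, chr11:55420081-55420330 on the minus strand, chr4:130047590-130047839 on the plus strand and chr16:57754738-57754987 on the minus strand. The GC box occurred 1, 0, 1 and 4 times in this order, and the Lef1 words 0 times in each. Of 39 members with an entry, 6 held a Lef1 word (15.4%), among them Bgn and Col15a1, and 25 a GC box (64.1%). Of 9032 measured genes with an entry, 14.1% held a Lef1 word and 55.4% a GC box. Fn1, Lum, Dcn and Col1a1 are among the 15 members not matched there.

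Among the genes of fibronectin, versican and the matricellular proteins, 0 of 7 passed as deposited, and Fn1 and Sparc stood highest. The group had a median difference of 0.42, against -0.05 for all genes, and 6 of its 7 genes were higher. Fn1, which encodes the adhesive glycoprotein fibronectin, was at 8.14, 9.11 and 8.96 in K14ΔNLef1 and 8.07, 7.08 and 6.75 in wild type. K14ΔNLef1 replicate 1 and wild type replicate 1 lay next to each other, so the groups were just separate. The difference was 1.44 (SE 0.38), with an adjusted p of 0.165. Sparc, a collagen-binding glycoprotein of remodelling matrix, was at 10.01, 10.27 and 10.60 in K14ΔNLef1 and 9.04, 9.41 and 9.66 in wild type. The lowest K14ΔNLef1 value of Sparc was above the highest wild type value, and the difference was 0.92 (SE 0.23, adjusted p of 0.145).

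Both genes passed when the arrays were put on a common scale. At the same median 3 members rose and Pcolce2 fell, where 0.913% of all genes rose and 1.18% fell. With quantile normalization 2 members rose and Pcolce2 fell, where 0.789% of all genes rose and 0.993% fell, 1.78% in all. Fn1 and Sparc had limma adjusted p of 0.0455 and 0.0403 with the arrays at the same median, and 0.0467 and 0.0317 after quantile normalization. They did not pass without K14ΔNLef1 replicate 1 (0.0752 and 0.0683), where their differences were 1.74 and 1.06. With 1 array left out, the adjusted p ran from 0.0752 to 0.511 for Fn1 and from 0.0683 to 0.464 for Sparc. The probe sets of both genes moved together: 48 of 49 were higher for Fn1, 27 of them without overlap, and 6 of 6 for Sparc, 5 without overlap. Probe set 5414363 of Fn1 was at 8.996, 9.04 and 9.06 in K14ΔNLef1 and 7.77, 7.51 and 7.57 in wild type, a difference of 1.42 that had the smallest p of its probe sets. The test of unequal change had an adjusted p of 1 for both genes.

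Markers of T cells and Langerhans cells also differed between the arrays. That list, 11 of 12 genes measured, stood at -0.21, 1.48 and 0.88 from the wild type mean on K14ΔNLef1 replicates 1, 2 and 3 and at 0.45, -0.38 and -0.07 on the wild type replicates. Its summed intensity was 3247 to 10417 in K14ΔNLef1 and 3302 to 5109 in wild type. The arrays with the highest marker values, K14ΔNLef1 replicates 2 and 3, were also those highest in Fn1, and wild type replicate 1 was the highest wild type array in both. K14ΔNLef1 replicate 1 was above all wild type arrays in Fn1 but below wild type replicates 1 and 3 in the markers, and wild type replicates 2 and 3 stood in opposite order. For Sparc, K14ΔNLef1 replicates 2 and 3 were also the highest arrays, but wild type replicate 1 was the lowest, at 9.04. The part of these cells in the Fn1 and Sparc values was not tested.

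The other 5 genes of this group were less clear. Vcan, a large chondroitin sulphate proteoglycan that is also made by the dermal papilla, was at 5.23, 5.52 and 5.39 in K14ΔNLef1 and 5.03, 5.14 and 4.58 in wild type. All K14ΔNLef1 values of Vcan were above the wild type values and its difference of 0.46 had an adjusted p of 0.441. Thbs1, which encodes thrombospondin 1, an activator of latent TGF-beta, was at 8.01, 8.55 and 9.06 in K14ΔNLef1, against 8.54, 7.97 and 7.86 in wild type, with overlap. Thbs2, a related inhibitor of angiogenesis, had a difference of -0.39 with an interval of -1.08 to 0.31. Tnc, the tenascin of wounds and growing hair, was at 6.34, 6.66 and 7.20 in K14ΔNLef1 and 6.61, 5.85 and 7.16 in wild type. Postn, which encodes periostin, was at 10.72, 11.50 and 11.72 in K14ΔNLef1 and 11.33, 11.06 and 11.16 in wild type. For Tnc and Postn the groups overlap, and the intervals of the difference were -0.62 to 1.01 and -0.49 to 0.75.

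**Figure D2:**
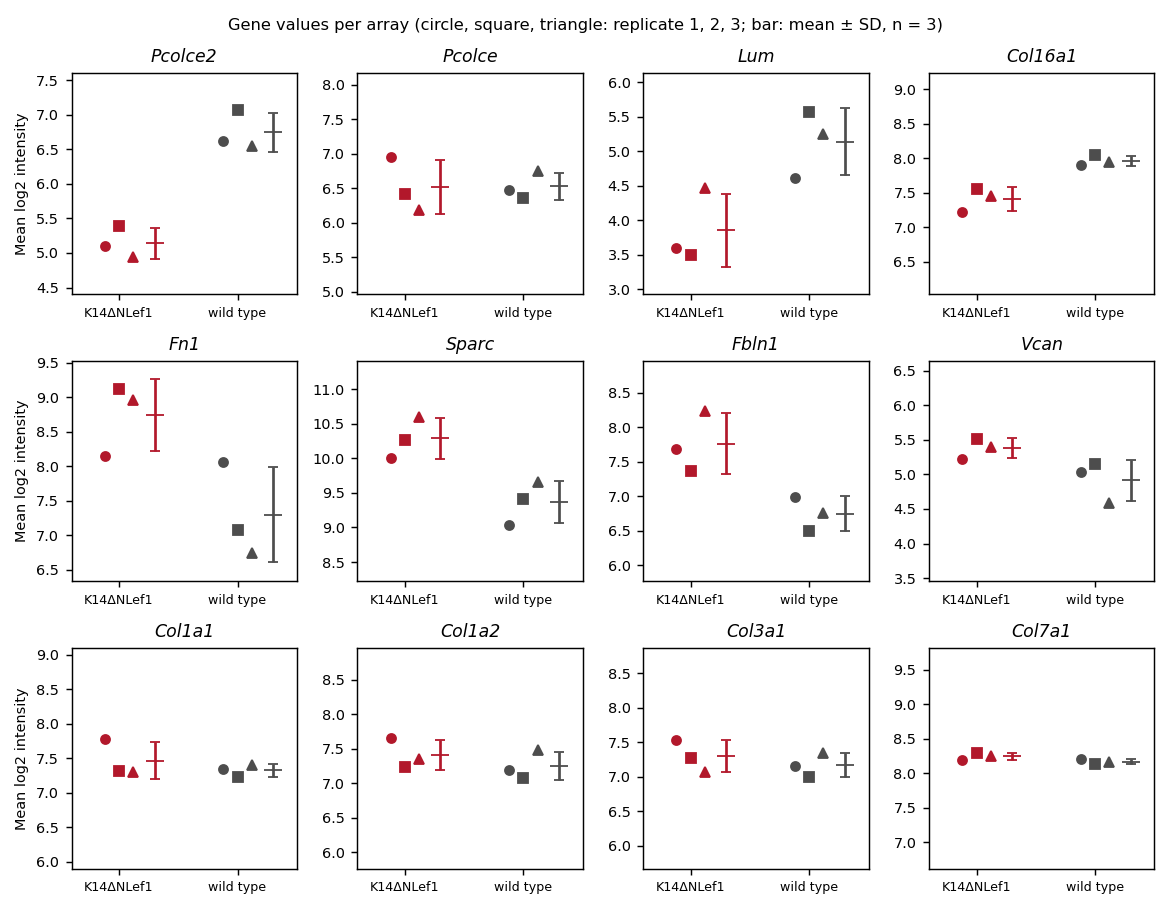
Mean log2 intensity of 12 matrix genes per array, with K14ΔNLef1 in red and wild type in grey; the symbol gives the replicate and the bar the mean ± SD (n = 3), and every panel spans 3.2 log2 units. Pcolce2, Lum and Col16a1 are lower on all K14ΔNLef1 arrays, Fn1, Sparc, Fbln1 and Vcan are higher, and Pcolce, Col1a1, Col1a2, Col3a1 and Col7a1 overlap.

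None of the 6 elastic fibre genes passed as deposited, and Fbln1 had the largest difference. Fbln1, a fibulin found in basement membranes and elastic fibres, was at 7.68, 7.37 and 8.24 in K14ΔNLef1 and 6.99, 6.49 and 6.76 in wild type. Its groups did not overlap, and the difference of 1.02 (SE 0.26) had a limma adjusted p of 0.147. With the arrays at the same median the adjusted p was 0.0498, with quantile normalization 0.0573, and without K14ΔNLef1 replicate 1 it was 0.136. Of 17 Fbln1 probe sets 15 were higher, 6 of them without overlap. Fbn1, which encodes fibrillin 1 of the microfibrils, was at 6.08, 5.98 and 6.07 in K14ΔNLef1, against 5.94, 5.98 and 5.92 in wild type, a difference of 0.10 that is smaller than its SE of 0.16. It counts as not overlapping, but its lowest K14ΔNLef1 value, 5.9836, was barely above its highest wild type value, 5.9833. Eln, which encodes elastin, had a difference of 0.13 with an interval of -0.29 to 0.55, and Fbln2, Fbln5 and Mfap5 had differences of 0.02 to 0.10.

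The small leucine-rich proteoglycans went apart, and 0 of 4 passed. Lum, which encodes lumican, a regulator of fibril thickness, was at 3.60, 3.49 and 4.46 in K14ΔNLef1 and 4.60, 5.57 and 5.25 in wild type. All K14ΔNLef1 values of Lum were below all wild type values. Its difference of -1.29 (SE 0.33) had an adjusted p of 0.151, and Lum was read by 1 probe set. Dcn, which encodes the related decorin, was at 6.40, 6.42 and 6.99 in K14ΔNLef1 and 6.28, 5.80 and 6.18 in wild type, with no overlap and a difference of 0.51 (adjusted p of 0.444). Of the 5 Dcn probe sets, number 5194203 alone differed by 2.28, and the other 4 by at most 0.20. Bgn, biglycan, had a difference of 0.13, and Aspn, asporin, was at 6.84, 7.92 and 8.76 in K14ΔNLef1 and 8.39, 8.53 and 8.04 in wild type. The spread of Aspn over the K14ΔNLef1 arrays, an SD of 0.97, was larger than its difference of -0.48.

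Among the collagens, 0 of 33 chains rose or fell (limma), 3 had an unadjusted p under 0.05, and these 3 were lower. Over all genes 11.8% had such a p. They were Col16a1, a collagen that sits on fibrils and near the basement membrane, Col6a1, a chain of the beaded filaments of collagen VI, and Col8a1, a short chain collagen of vessel walls. Col16a1 was at 7.22, 7.55 and 7.46 in K14ΔNLef1 and 7.90, 8.05 and 7.95 in wild type, a difference of -0.56 (SE 0.17, adjusted p of 0.238). Col6a1 was at 6.37, 5.96 and 6.41 in K14ΔNLef1 and 6.57, 6.80 and 6.82 in wild type, a difference of -0.48 (SE 0.19, adjusted p of 0.379). Col8a1 was at 6.09, 5.83 and 5.70 in K14ΔNLef1 and 6.38, 6.17 and 6.57 in wild type, a difference of -0.50 (SE 0.19, adjusted p of 0.357). In each of these genes the 3 K14ΔNLef1 values lay below the 3 wild type values.

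Col16a1 was the second member whose probe sets changed unequally, 2 of 51 tested, where 0.754% of all genes tested were called (diffSplice adjusted p of 5.88e-04). Of its 39 probe sets, 11 were lower by at least 1 and 22 differed by under 0.5 in either direction. Probe set 5361735 was at 8.07, 7.44 and 7.77 in K14ΔNLef1 and 9.34, 9.79 and 9.43 in wild type. Probe set 4354000 was at 9.21, 9.84 and 9.79 in K14ΔNLef1 and 11.39, 11.19 and 11.41 in wild type. By contrast, probe set 5594169 was at 8.82, 8.51 and 8.54 in K14ΔNLef1 and 8.69, 8.71 and 8.55 in wild type, with overlap and a difference of -0.03. The test of unequal change was lost when wild type replicate 1 (0.326) or 2 (0.101) was left out, and it passed in the other 4 fits with 1 array left out. For Pcolce2 it passed in all 6, with adjusted p of 3.91e-04 to 0.0194. Col8a1 had a diffSplice adjusted p of 0.0848, and 1 of its 7 probe sets, 4788459, differed by -2.53 while the others lay between -0.67 and 0.25. Of all 1160 probe sets of the members, 0 passed the limma test per probe set, where 0.19% of all did, and 88 had an unadjusted p under 0.05 (7.59%), against 8.13% of all probe sets. With arrays weighted by their fit, 8 members passed, 3 higher and 5 lower, where 5.3% of all genes rose and 6.2% fell, 11.5% in all.

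**Figure D3:**
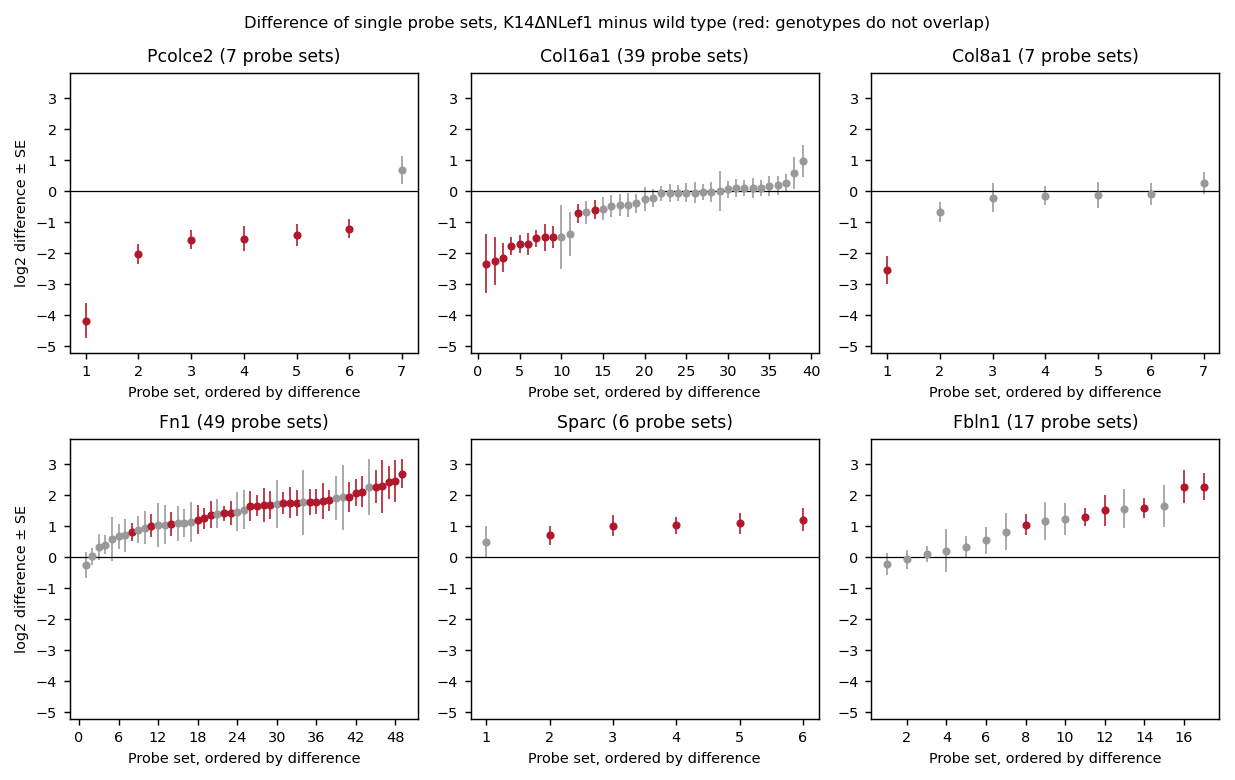
Difference of each probe set (K14ΔNLef1 minus wild type, log2, ± SE) for 6 matrix genes, ordered within the gene; red points are probe sets whose genotypes do not overlap. In Pcolce2 6 of 7 are low and in Col16a1 11 of 39 are lower by 1 or more, while nearly all of Fn1 and all of Sparc lie above 0.

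The fibril-forming collagens had small differences. The 11 chains measured include those of collagens I, III and V, which are found in the dermis, and of II, XI, XXIV and XXVII, which are mainly of cartilage and bone. Of the 11, 0 passed, all had a difference under 0.3 in size, and all 95% intervals lay within a log2 change of 1 either way. In wild type, the means of Col2a1 (7.52), Col11a2 (7.64) and Col27a1 (7.96) were above those of Col1a1 (7.32), Col1a2 (7.25) and Col3a1 (7.17). Col11a1 (6.61) and Col24a1 (5.08) were below them. No detection call was used, so narrow intervals of these and other chains do not show that a chain is expressed at a steady level. Col1a1, a chain of collagen I, the main fibril collagen of skin, was at 7.77, 7.32 and 7.30 in K14ΔNLef1 and 7.34, 7.22 and 7.40 in wild type. Its partner Col1a2 was at 7.65, 7.23 and 7.34 in K14ΔNLef1 and 7.20, 7.07 and 7.47 in wild type. Col3a1, which encodes collagen III of young and healing dermis, was at 7.54, 7.28 and 7.07 in K14ΔNLef1 and 7.16, 6.997 and 7.35 in wild type. In all of these the groups overlap, and the differences were 0.14, 0.16 and 0.13 with intervals of -0.30 to 0.58, -0.29 to 0.61 and -0.32 to 0.58. Col5a1 and Col5a2, chains of collagen V that set fibril width, had differences of 0.10 and 0.28. Col5a2 did not overlap, at 6.42, 6.22 and 6.25 in K14ΔNLef1 and 5.94, 5.99 and 6.12 in wild type, and its adjusted p was 0.584.

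Collagens of the epidermal side of the dermis differed little as well. Of 8 basement membrane and multiplexin chains, 0 passed, and their differences ran from -0.09 for Col4a1 to 0.28 for Col18a1. Col4a1, the main chain of basement membrane collagen IV, was at 6.92, 7.23 and 7.18 in K14ΔNLef1 and 7.26, 7.20 and 7.14 in wild type, with overlap. Col18a1, whose end is cleaved off as the angiogenesis inhibitor endostatin, was at 7.46, 7.47 and 7.60 in K14ΔNLef1 and 7.19, 7.33 and 7.17 in wild type, without overlap (adjusted p of 0.577). Col7a1, which forms the anchoring fibrils and is made largely by keratinocytes, was at 8.19, 8.29 and 8.24 in K14ΔNLef1 and 8.21, 8.14 and 8.16 in wild type. Its interval over 71 probe sets was -0.29 to 0.44. Col12a1, a fibril-associated collagen read by 61 probe sets, was at 7.25, 7.37 and 8.08 in K14ΔNLef1 and 7.71, 7.87 and 7.76 in wild type, with an SD of 0.45 in K14ΔNLef1 and 0.083 in wild type. The other fibril-associated, beaded filament, short chain and transmembrane chains had differences of -0.12 to 0.17. Of all 33 chains, 32 had an interval within a log2 change of 1, and the other was Col10a1, read by 1 probe set.

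**Figure D4:**
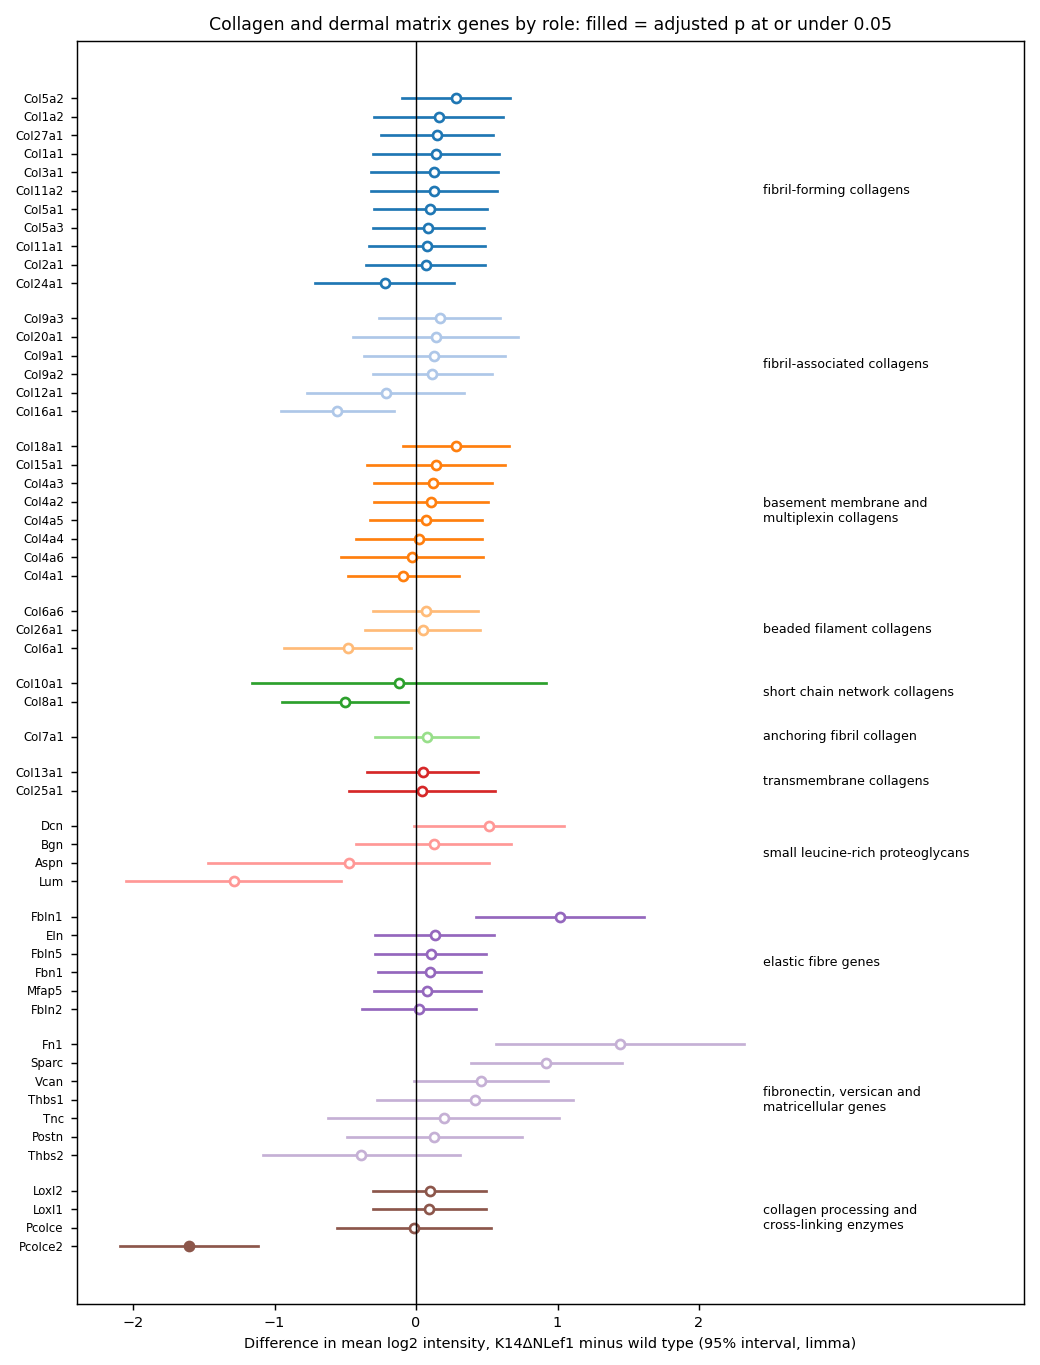
Difference of each of the 54 genes (K14ΔNLef1 minus wild type, log2; point) with its 95% limma interval (line, not adjusted for the number of genes), grouped by role; a filled point has an adjusted p at or under 0.05. Pcolce2 at -1.60 is the filled point, and the fibril-forming collagens sit between -0.22 and 0.28.

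Counted together, 41 of the 54 genes were higher (75.9%), against 42.8% of all genes, with a median difference of 0.10 against -0.05. The share depends on intensity. Under a mean log2 of 7, 73.9% of 23 members were higher, against 61.5% of all such genes. At 7 to 8 it was 76.2% of 21 members against 41.1%, and at 8 to 9 75% of 8 against 20.3%. At 9 or more it was 100% of 2 against 13.4%. The balance towards higher values rested on K14ΔNLef1 replicate 1. The median member stood at 0.28, -0.02 and 0.03 from its wild type mean on K14ΔNLef1 replicates 1, 2 and 3, where all genes stood at -0.16, -0.06 and 0.03. Of the members, 29 had their highest value on that array (53.7%), among them 10 of 11 fibril-forming chains, against 21.9% of all genes and 37.6% of all genes with a mean log2 under 7. Without it the median difference of the members was 0.01, against -0.02 for all genes, 17 members changed sign, and Pcolce2 remained the 1 called member (where 1.02% of genes rose and 1.1% fell, 2.12% in all). Genotypes did not overlap for 13 members (24.1%), against 18.7% of all genes. Of these, 8 were higher (14.8%, against 6.91%) and 5 lower (9.26%, against 11.8%), and all 13 are described above. Under a mean log2 of 7, 17.4% of members and 10.2% of all genes were higher without overlap, and 17.4% and 5.38% lower. Fbn1 is among the 8, with its groups barely separate.

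Other genes of matrix production and turnover, from lists drawn up with earlier results of these data known, mostly did not pass. Of 56 measured interstitial matrix genes outside the members, 2 fell and 0 rose, where 0.833% of all genes fell and 0.328% rose. Tnxb, which encodes tenascin X, a spacer of collagen fibrils in skin, was at 6.92, 6.76 and 6.93 in K14ΔNLef1 and 8.12, 8.49 and 8.25 in wild type, a difference of -1.41 (SE 0.18, adjusted p of 0.0130). Ecm1, a matrix protein of the upper dermis and epidermis, was at 8.05, 8.25 and 8.39 in K14ΔNLef1 and 9.18, 9.40 and 9.49 in wild type, a difference of -1.13 (SE 0.18, adjusted p of 0.0302). Both were lower on every K14ΔNLef1 array, and with 1 array left out Tnxb passed in 4 of 6 fits and Ecm1 in 1. The median difference of this list was 0.11, and 38 of the 56 were higher (67.9%, against 42.8% of all genes). Has3, a hyaluronan synthase, missed the threshold at 7.98, 8.85 and 8.60 in K14ΔNLef1 and 7.35, 6.27 and 6.47 in wild type (adjusted p of 0.0528), and passed without K14ΔNLef1 replicate 1 (0.0340).

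Of 13 measured genes that hydroxylate, fold or export collagen, 0 passed (limma), 2 had an unadjusted p under 0.05, and the median difference was -0.20, and -0.02 without K14ΔNLef1 replicate 1. The share of all genes with such a p was 11.8%. Plod2, the lysyl hydroxylase of collagen ends, was at 5.79, 6.22 and 6.73 in K14ΔNLef1 and 5.70, 4.60 and 4.70 in wild type (adjusted p of 0.190), and Plod1, a lysyl hydroxylase of the helix, had a difference of -0.50. Of 8 procollagen proteases and other cross-linking enzymes 0 passed and 0 had an unadjusted p under 0.05, with Tgm2 at 0.30 and Mep1b at 0.23. Of 24 matrix proteases and inhibitors 0 passed and 3 had such a p, with the inhibitor Timp1 at 0.73 and the gelatinase Mmp9 at 0.52. Of 12 non-collagen basement membrane genes 0 passed and 4 had such a p, with the laminin chains Lama1 at -0.83 and Lamb1 at -0.69. Of 18 collagen and matrix receptors 0 passed and 3 had such a p, with Itga2, a subunit of the collagen-binding integrin of keratinocytes, at -1.26 (adjusted p of 0.0680, and 0.0295 without K14ΔNLef1 replicate 1), and Cd47 at -0.64. Of 15 TGF-beta and PDGF pathway genes 0 passed and 0 had such a p, with Ltbp1 and Pdgfc both at -0.45. The medians of these 5 lists were 0.05, 0.07, 0.03, -0.12 and -0.20, against -0.05 for all genes. Without K14ΔNLef1 replicate 1 the median of the TGF-beta and PDGF list turned to 0.05 and those of the procollagen protease and basement membrane lists were 0.0027 and 0.012, against -0.02 for all genes.

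Of 23 fibroblast markers outside the 54 members, 22 were measured, 0 passed and 15 were higher, with a median difference of 0.09. Dpt among them is also in the interstitial matrix list, and Fap in the matrix protease list. Their differences ran from -0.31 to 0.86, and 15 of the 22 had an interval within a log2 change of 1. Their summed intensity was 4022, 6754 and 5432 in K14ΔNLef1 and 4788, 3801 and 4675 in wild type, so K14ΔNLef1 replicates 2 and 3 were above all wild type arrays. Thy1 is also in the T cell and Langerhans cell list. That list's sums were 3247, 10417 and 6754 in K14ΔNLef1 and 5109, 3302 and 3514 in wild type, highest on the same arrays. The part of immune cells in the fibroblast marker sums was not tested. Pdgfra, a receptor that defines dermal fibroblasts, was at 5.70, 5.38 and 5.35 in K14ΔNLef1 and 5.18, 5.60 and 5.40 in wild type, and Vim, vimentin, which immune cells also make, was at 8.50, 9.73 and 9.57 in K14ΔNLef1 and 8.77, 7.99 and 8.48 in wild type. Both overlap. No marker was listed at 0, since 0 of the deposited values were, and no detection call was used, so presence of these cells cannot be read from the levels. The part of fibroblasts in the matrix gene values was not tested.

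Other marker lists had 0 members called as well. Endothelial, pericyte and smooth muscle markers, 17 of 19 measured, had a summed intensity of 1339 to 1814 in K14ΔNLef1 and 1361 to 1398 in wild type, and 10 of the 17 were highest on K14ΔNLef1 replicate 1. Summed intensity was 766 to 1053 in K14ΔNLef1 and 650 to 899 in wild type for 8 dermal papilla markers, 672 to 906 in K14ΔNLef1 and 638 to 703 in wild type for 8 adipocyte markers, and 602 to 727 in K14ΔNLef1 and 653 to 713 in wild type for 7 skeletal muscle markers. It was 720 to 1034 in K14ΔNLef1 and 912 to 1085 in wild type for 5 Schwann cell markers, 774 to 1088 in K14ΔNLef1 and 763 to 919 in wild type for 7 melanocyte markers, and 774 to 1013 in K14ΔNLef1 and 748 to 841 in wild type for 9 macrophage markers. Keratinocyte markers, 13 of 14 measured, were the list whose sums did not overlap, at 29383 to 39771 in K14ΔNLef1 and 41086 to 43924 in wild type, with K14ΔNLef1 replicate 1 lowest. Of these 13 genes 12 were lower and 0 passed, 3 with an unadjusted p under 0.05 (23.1%, against 11.8% of all genes). Of all genes at a mean log2 of 9 or more, 13.4% were higher, with a median difference of -0.28 against -0.34 for the keratinocyte markers. Without K14ΔNLef1 replicate 1 these medians were -0.06 and -0.26.

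**Figure D5:**
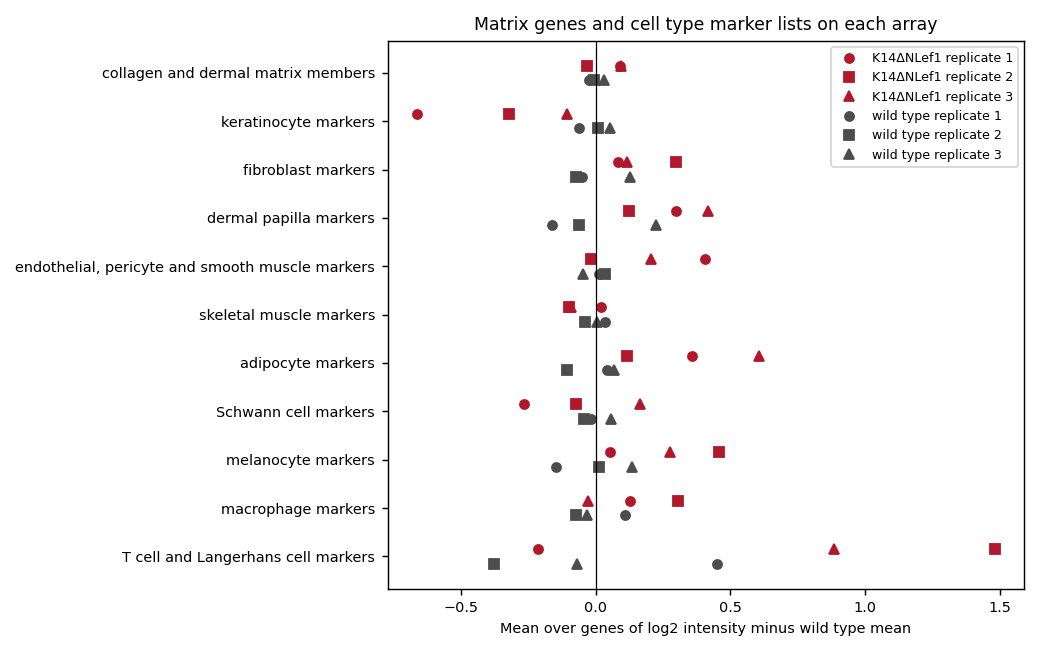
Mean over the genes of each list of log2 intensity minus the wild type mean, per array, for the 54 matrix genes and 10 cell type marker lists; colour gives the genotype and the symbol the replicate. The matrix genes lie between -0.03 and 0.09 on all arrays, while keratinocyte markers reach -0.66 on K14ΔNLef1 replicate 1 and T cell and Langerhans cell markers 1.48 on K14ΔNLef1 replicate 2.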

How the data were processed

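Per the submitters' processing notes, the authors used Affymetrix Power Tools, RMA and mm9; their versions are not given in the sources used here. Deposited are values of linear intensity per probe set and array, and the log2 of 100% of them has 5 decimals. Per the labels' protocols, RNA was taken after cell sorting and amplified with a kit for small amounts. Log2 was taken, and the probe sets of each gene were averaged. Of 114330 probe sets, 109751 had 1 gene symbol in the platform annotation. Of the annotation's symbols, 1226 were updated through the GRCm38.p6 gene table, which brought in Col26a1 and Col6a6.

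Genes and probe sets were fitted with limma 3.58.1 (lmFit, eBayes, two-sided) in R 4.3.3 over all 6 arrays, with no filter on low values, and diffSplice tested the 9818 genes with at least 3 probe sets. P-values set the genotype difference against the spread between arrays of the same genotype, with variances moderated over all features fitted. Whether that spread is between mice or pools is not stated in the labels. The fits were also run on simulated arrays with known changes. There each feature had the same spread on all arrays and no array stood apart. The simulation therefore does not show how the fits deal with an array like K14ΔNLef1 replicate 1. Tables and plots were made with pandas 2.3.3 and matplotlib 3.10.9 in Python 3.11.15. The alternatives were other gene values, filters, scalings, weights, blocks, a covariate, an adjusted p of 0.1 and each array left out. Members, lists and tests were chosen with earlier results of these data known. Named genes are the members called with or without K14ΔNLef1 replicate 1, those without overlap and a difference of at least 1, the 3 largest rises and falls, and a fixed set of main matrix genes, and in pathway lists the called genes or the 2 with the smallest p. Others are described by role group. Col8a1, Col5a2, Thbs2, Aspn, Loxl1, Loxl2 and Has3 were named after seeing their values. Genes named inside a role group or marker list, such as Col2a1, Col11a1, Col11a2, Col24a1, Col27a1, Col10a1, Fbln2, Fbln5, Mfap5 and Krt10, were also outside that rule. The number of arrays limits the precision.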

Additional observations from a re-analysis of the deposited data

How the results depend on the processing

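The fall of Pcolce2 kept its sign in all 18 alternatives and its call in 14, and no named difference that was called under any setting reversed. With the arrays at the same median 4 members were called, with quantile normalization 3 and with array weights 8, which weigh K14ΔNLef1 replicate 1 at 0.15 and replicate 2 at 5.18. With genes under a mean log2 of 7 left out 0 were called, since Pcolce2 is one of them. With 1 array left out 0 to 1 members were called. The genes called over all, 131, were 236 at the same median, 201 with quantile normalization, 1297 with array weights, 78 with the array number as a covariate, 236 at an adjusted p of 0.1. Leaving out 1 array gave 28 to 239. Without K14ΔNLef1 replicate 1 and with the other arrays at the same median, an alternative chosen after seeing the data, 241 were called. Probe sets of members called, 0 as deposited, were 1 at the same median, 1 with quantile normalization, 2 with trend and robust settings, 4 at an adjusted p of 0.1. Leaving out 1 array gave 0 to 1. Members with unequal change were 1 to 3 with 1 array left out. The median difference of the members was 0.01 to 0.14 with 1 array left out.

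Replicate numbers are shared by the genotypes, but same-numbered samples did not deviate together (correlations of -0.16, -0.17 and 0.04), so they were not treated as pairs. With the replicate block 75 genes and 1 member were called, and Pcolce2 had a limma adjusted p of 0.0333. With samples of adjacent numbers in the descriptions as a block these were 91 genes, 1 member and 0.0409. That block joins K14ΔNLef1 replicates 2, 3 and 1 to wild type replicates 1, 2 and 3, with correlations of 0.20, -0.07 and -0.01. Fn1 had a limma adjusted p of 0.0536 with that block and 0.280 with the replicate block, against 0.165 with no block.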
